A study of Mus musculus with 30 samples.

Results

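Messenger RNA of 9 matrix metalloproteinases (MMPs) and of the tissue inhibitor of metalloproteinases 1 was followed through fracture healing. The 10 genes, Mmp2, Mmp3, Mmp9, Mmp10, Mmp11, Mmp12, Mmp13, Mmp14, Mmp16 and Timp1, were taken by name from a table of read counts for 43629 genes. All 10 were in the table, which also held 14 other MMP genes and 4 other inhibitor genes. The libraries came from the callus, the repair tissue that bridges a broken bone, of male C57BL/6J mice aged 20 weeks. Each mouse had an open fracture of the right tibia held by an intramedullary nail. Lean mice, kept on a low-fat diet, gave 3 calli each on d3, d5, d7 and d10. Diet-induced obese (DIO) mice, kept on a high-fat diet, gave 3 calli each on the same days and on d14 and d21. Lean calli of the latest 2 days were not analysed here. Each of the 30 libraries was made from 1 callus, and the diets differed in the whole feeding history of the mice, not in a single nutrient.

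MMPs are zinc-dependent enzymes that cut the proteins of the extracellular matrix. Most are secreted as inactive proenzymes and are switched on when their propeptide is removed, and TIMP proteins block them by filling the active site. In a healing fracture they clear the early matrix, remodel the cartilage that precedes bone and let vessels and bone-forming cells in. MMP9 is made in quantity by osteoclasts, the cells that resorb bone and calcified cartilage, and MMP13 is the main collagenase of hypertrophic chondrocytes and osteoblasts. Messenger RNA level says nothing of activation or inhibition of the protein.

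Of the 10 genes, 4 lie in 1 cluster on chromosome 9. The cluster spans chr9:7272514-7699585 of GRCm38 (427.1 kb) and holds 10 MMP genes, among them Mmp13, Mmp12, Mmp3 and Mmp10, in this order. The other members are spread over the genome, with Mmp2 on chromosome 8, Mmp9 on 2, Mmp11 on 10, Mmp14 on 14, Mmp16 on 4 and Timp1 on X. RefSeq promoter windows (250 bases before to 50 after a start, GRCm38.p6) were at hand for 7 of the 10, in 8 windows. They were searched on both strands for the AP-1 motif TGANTCA and for the RUNX motif ACCACA, the letters bound by the FOS and JUN proteins and by RUNX2, a regulator of bone and cartilage cells. The stretches that hold a match are printed because all 4 clustered members carried an AP-1 match close to a start. Capitals mark the matched letters, and each sequence is on the + strand, 5′ to 3′, from chr9:7272386-7272508, chr9:7347320-7347359, chr9:7445766-7445805, chr9:7502269-7502308 and chr14:54431474-54431513.
Mmp13: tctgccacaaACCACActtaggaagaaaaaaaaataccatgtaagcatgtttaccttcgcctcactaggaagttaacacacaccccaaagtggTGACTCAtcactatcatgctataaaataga
Mmp12: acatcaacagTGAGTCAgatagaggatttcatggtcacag
Mmp3: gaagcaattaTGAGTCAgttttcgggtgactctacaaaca
Mmp10: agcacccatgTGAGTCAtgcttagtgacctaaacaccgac
Mmp14: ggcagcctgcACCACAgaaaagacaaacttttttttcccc
The AP-1 letters began 35 bases before the start in Mmp13, 46 in Mmp3, 63 in Mmp10 and 44 in the second of the Mmp12 windows. The RUNX letters began 118 bases before the start in Mmp13 and 114 in Mmp14. Of 32851 promoter windows of this length, 7.81% held the AP-1 motif and 16.8% the RUNX motif. Mmp11, Timp1 and the first Mmp12 window held neither motif. Mmp2, Mmp9 and Mmp16 had no entry in the table of windows. A match is a stretch of letters and no evidence that a factor bound it.

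Library totals ran from 13247122 to 26365620 counts. Levels are given as CPM, the usual depth-scaled read count, after scaling of the 30 libraries with TMM factors, and levels of different genes are compared only per kb of exon length. Changes are log2 fold changes with their standard error (SE) from the quasi-likelihood F-test of edgeR, and a gene was called at a Benjamini-Hochberg adjusted p under 0.05 over all genes of the fit. Replicates are different mice, so p-values measure the spread between animals. The library of lean d10 replicate 1 stood apart. Its summed chondrocyte marker level was 79070 CPM, against 15060 and 18010 in the other lean d10 libraries, and its skeletal muscle marker level was 1135 CPM, against 10440 and 15470. In whole callus, fewer cells of a type and less RNA per cell cannot be told apart.

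Timp1 was the most abundant of the 10 genes, with a mean over the 30 libraries of 619.8 CPM per kb. Mmp9 followed with 509, Mmp13 with 498 and Mmp2 with 347 CPM per kb. Mmp14 reached 138 and Mmp11 10.6 CPM per kb. The levels of the first 5 were above the levels of at least 97.2% of the 14807 genes with a mean of at least 1 CPM. Mmp3 had 3.48, Mmp16 2.54, Mmp12 1.48 and Mmp10 0.31 CPM per kb. Mmp12 is understated on this scale, since its annotated exons add up to 7237 bases. Mmp10 was close to the limit of detection, with 0 to 36 counts per library and at least 3 counts in 21 of the 30. At these depths 3 counts correspond to 0.108 to 0.23 CPM, which covers counting error only. The neighbouring levels of Timp1, Mmp9 and Mmp13 changed rank from day to day, so their order over the whole series is not an order at any 1 time.

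**Figure D1:**
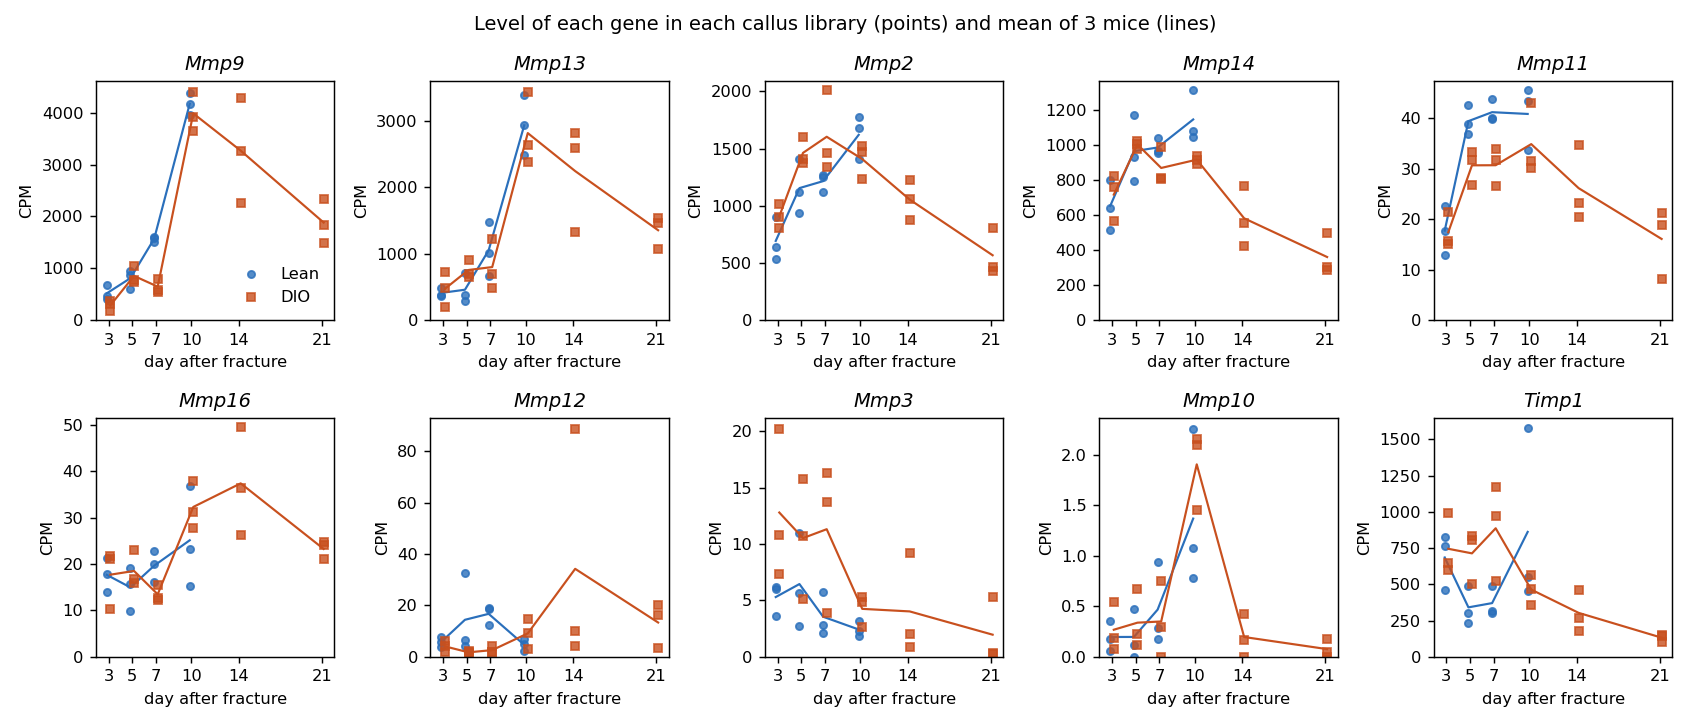
Level of each of the 10 genes in CPM (vertical axes, each from 0) against day after fracture, for lean mice (circles) and DIO mice (squares), with 1 point per library and a line through the means of 3 mice. Mmp9 and Mmp13 climb to d10 in both diets, Mmp9 and Mmp12 lie lower in DIO than in lean mice on d7, and the single high Timp1 value on d10 is lean replicate 1 (1576 CPM).

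The first question was how the genes changed as the lean callus matured. Mmp9 and Mmp13 rose most, Mmp2, Mmp11 and Mmp14 rose less, and edgeR called no change of Timp1 or Mmp16. Over all 4 days 4 of the 10 genes were called, beside 19% of the 16471 genes tested. These were Mmp9 (adjusted p = 6e-05), Mmp13 (0.000875), Mmp11 (0.00495) and Mmp2 (0.0145, or 0.0579 without lean d3 replicate 1). Mmp14 lay just outside the threshold (0.0503). Timp1 was at 0.0986, while DESeq2 called it over all 4 days (0.012) and from d7 to d10 (0.0374), and so did edgeR over all 4 days with all 30 libraries in 1 fit (0.0319). The edgeR change of Timp1 from d7 to d10 was 1.23 (adjusted p = 0.123), and 0.46 (0.497) without lean d10 replicate 1. From d3 to d10 6 of the 10 genes were called, all of them higher on d10, beside 29.3% of all genes.

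Mmp9, the gelatinase of osteoclasts and neutrophils, measured 406, 686 and 457 CPM in the lean libraries of d3. It measured 607, 870 and 953 CPM on d5, and 1588, 1604 and 1514 CPM on d7. On d10 it measured 4384, 3967 and 4171 CPM, and no library of d7 or d10 overlapped with an earlier day. The log2 change was 1.63 ± 0.22 (SE, n = 3 and 3) from d3 to d7 (adjusted p = 0.00484) and 1.43 ± 0.22 from d7 to d10 (0.0166). The genes called in these steps made up 1.67% and 2.73% of all tested. From d3 to d10 the change was 3.05 ± 0.23 (adjusted p = 2.28e-05), and it was called whichever of the 6 libraries was left out. The d7 to d10 step was not called without lean d7 replicate 1 (0.058), 2 (0.0754) or 3 (0.0664). In the fits without 1 library its log2 change ran from 1.39 to 1.45, and 24 to 1141 of all genes were called.

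Mmp13, collagenase 3, rose over the same days. Its lean levels were 372, 369 and 488 CPM on d3, and 376, 290 and 708 CPM on d5. They were 1008, 672 and 1477 CPM on d7, and 3387, 2484 and 2939 CPM on d10, above every earlier library. The change was 2.88 ± 0.37 on the log2 scale from d3 to d10 (adjusted p = 0.000418) and 1.49 ± 0.35 from d7 to d10 (0.0462). The step from d7 to d10 lost its call without lean d7 replicate 1 (0.0952), 2 (0.14) or 3 (0.0874) and without lean d10 replicate 1 (0.111).

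Mmp2, the second gelatinase and a product of fibroblasts and other stromal cells, rose by less. Its lean libraries ran from 533 to 903 CPM on d3 and from 1408 to 1774 CPM on d10, a log2 change of 1.26 ± 0.22 (adjusted p = 0.00223). Mmp11, stromelysin 3, measured 17.6, 12.9 and 22.6 CPM on d3 and 43.8, 39.7 and 39.9 CPM on d7. It had changed by 1.24 ± 0.20 on the log2 scale by d7 (adjusted p = 0.0111, or 0.0632 without lean d3 replicate 1) and stood at 1.24 ± 0.20 on d10 (0.00132). From d7 to d10 the change of Mmp11 was 0.0022 ± 0.19 (0.995), while Mmp9 and Mmp13 each had a called step there. Mmp14, the membrane-anchored protease that activates proMMP2, rose from 517 to 799 CPM on d3 to between 1046 and 1314 CPM on d10 (0.85 ± 0.20, 0.00976).

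Mmp10, stromelysin 2, was called from d3 to d10 (2.78 ± 0.93, adjusted p = 0.0425) at very low levels. Its lean libraries held 0.0593, 0.179 and 0.35 CPM on d3 and 2.26, 1.07 and 0.78 CPM on d10. The call was lost without lean d3 replicate 1 (0.131), 2 (0.132) or 3 (0.0538) and without lean d10 replicate 1 (0.132) or 2 (0.0638), and with no filter but 1 count (0.0501). Mmp3, stromelysin 1, had a log2 change of -1.09 ± 0.51 over the same days (adjusted p = 0.128). Mmp12, the elastase of macrophages, reached its highest lean level on d7 (12.4, 19.1 and 18.8 CPM) and measured 2.19, 6.97 and 4.8 CPM on d10. That step of -1.83 ± 0.65 was not called by edgeR (adjusted p = 0.113), and DESeq2 called it (0.0268). The lean d5 library of replicate 2 held 32.6 CPM of Mmp12 against 6.35 and 4.31 CPM in the others.

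In DIO mice Mmp9 and Mmp13 rose by d10 as well, and the larger step of Mmp9 came after d7. Over all 6 days 9 of the 10 genes were called, all but Mmp3 (adjusted p = 0.0832), beside 59.1% of the 16995 genes tested. The 2 genes called from d3 to d7 were Mmp9 and Mmp2, beside 7.3% of all genes. From d7 to d10 there were 3, beside 13%, and from d3 to d10 5, beside 21.8%, all of them higher on d10.

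Mmp9 measured 174, 372 and 305 CPM in the DIO libraries of d3, and 1040, 737 and 782 CPM on d5. On d7 it measured 590, 550.2 and 797 CPM, so the DIO level of d7 was no higher than that of d5. On d10 it measured 3916, 3649 and 4403 CPM. The log2 change was 1.19 ± 0.29 from d3 to d7 (adjusted p = 0.018) and 2.63 ± 0.30 from d7 to d10 (2.34e-05). The second step was called whichever library was left out. The first was not called without DIO d3 replicate 1 (0.0915) or DIO d7 replicate 3 (0.0505).

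Mmp13 measured 204, 482 and 725 CPM in DIO mice on d3, and 1216, 700.4 and 482 CPM on d7. On d10 it measured 2634, 2384 and 3443 CPM, above all libraries of d3, d5 and d7. The change from d7 to d10 was 1.82 ± 0.41 (adjusted p = 0.0058) and that from d3 to d10 2.59 ± 0.42 (0.000393), and both were called whichever library was left out. Mmp16, a membrane-type MMP, was the third gene called from d7 to d10. It went from 12.3, 15.5 and 12.6 CPM to 27.8, 31.3 and 37.8 CPM (1.26 ± 0.26, 0.00381). In lean mice the change of Mmp16 over these days was 0.37 ± 0.32 (0.486).

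Mmp2 rose early in DIO mice, from 805, 902 and 1013 CPM on d3 to 1336, 2011 and 1463 CPM on d7 (0.82 ± 0.23, adjusted p = 0.0409). This call was lost without DIO d3 replicate 1 (0.152), 2 (0.133) or 3 (0.068) and without DIO d7 replicate 2 (0.162). Mmp11 (1.01 ± 0.28, 0.0163), Mmp10 (2.86 ± 0.95, 0.0386) and Mmp16 (0.87 ± 0.26, 0.0242) were called from d3 to d10. For Mmp11 the adjusted p was 0.0661 without DIO d3 replicate 2, 0.0635 without DIO d3 replicate 3 and 0.0842 without DIO d10 replicate 2. For Mmp16 it was 0.0978 without DIO d3 replicate 1, 0.057 without DIO d10 replicate 2 and 0.105 without DIO d10 replicate 3. For Mmp10 it was 0.161 and 0.126 without DIO d3 replicate 2 or 3, and 0.0979 and 0.0981 without DIO d10 replicate 2 or 3.

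**Figure D2:**
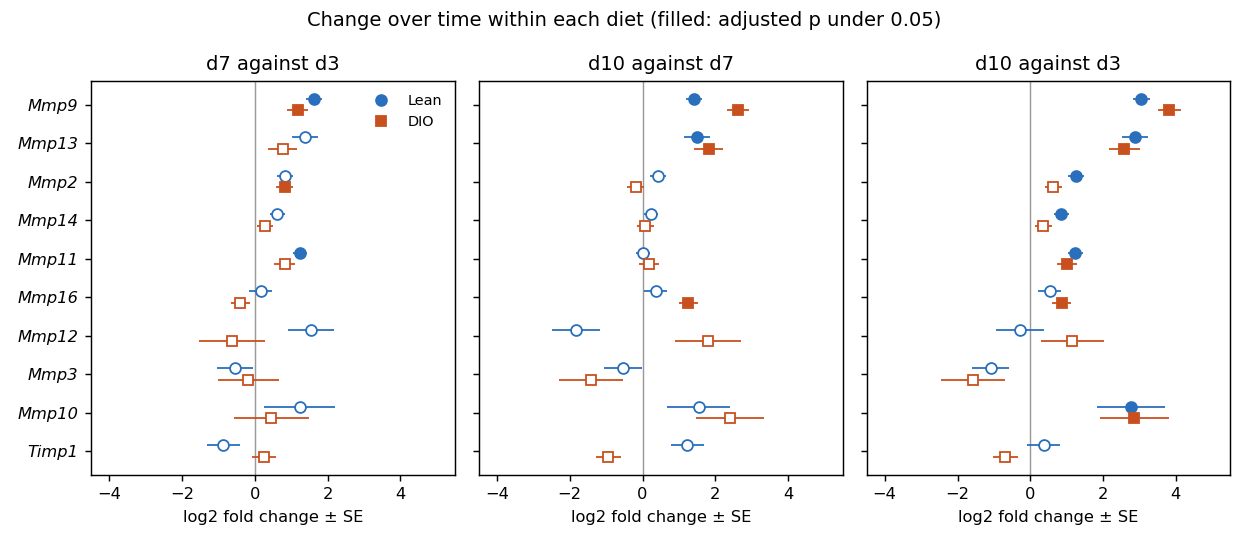
Log2 fold change ± SE of each gene between the days named above each panel, in lean mice (circles) and DIO mice (squares), with filled symbols where the adjusted p was under 0.05. Mmp9 is called in all 3 panels in both diets, and its DIO step from d7 to d10 (2.63) is larger than its lean step (1.43).

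After d10 the libraries analysed here were from DIO calli alone. None of the 10 genes was called from d10 to d14 by edgeR, beside 0.759% of all genes, although 3 had an unadjusted p under 0.05, and DESeq2 called 0. From d14 to d21 3 genes were called, all lower on d21, beside 19.6% of all genes, and all 10 went down. Mmp2 fell from 1062, 879 and 1222 CPM to 426, 808 and 467 CPM (-0.90 ± 0.23, adjusted p = 0.0146). Timp1 fell from 268, 181 and 460.2 CPM to 145, 148 and 103 CPM (-1.20 ± 0.34, 0.0224), so that every DIO library of d21 lay below every earlier one. Mmp14 fell by 0.69 ± 0.23 on the log2 scale (0.0442). Mmp9 had a change of -0.80 ± 0.29 (0.0577).

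Without 1 library the genes called from d14 to d21 ranged from 1285 to 4070, beside 3335 in the main fit. The 3 member calls were not kept in each of these fits. All 3 were lost without DIO d14 replicate 3, with adjusted p-values of 0.0644 for Mmp2, 0.144 for Timp1 and 0.226 for Mmp14. They were also lost without DIO d21 replicate 1 (0.0809, 0.0608 and 0.18) and without DIO d21 replicate 3 (0.0555, 0.081 and 0.137). Mmp14 was lost without DIO d14 replicate 1 too (0.0815). Of the 7 fibroblast markers 6 were called lower over the same days, as were 4 of 8 osteoblast and 3 of 10 osteoclast markers. By direction alone, all 7 fibroblast, all 8 osteoblast and 9 of 10 osteoclast markers went down. So did all 9 skeletal muscle (median -1.42, against -0.79 for fibroblast), 12 chondrocyte, 4 hypertrophic chondrocyte and 5 endothelial markers. Of these lists 2, 1, 1 and 0 markers were called lower. Macrophage markers were mixed, with 5 up and 4 down. All 5 adipocyte and all 5 B cell markers went up, with 0 and 1 called. Of the neutrophil markers 7 of 11 were called higher, as were 4 of 6 erythroid markers, and 9 and 6 of them went up. The erythroid sum went from a mean of 6651 ± 4636 to 29620 ± 5786 CPM (SD, n = 3 each). The part of these lists in the fall was not tested. At the end of the series Mmp12 stood at 3.51, 16.4 and 20.1 CPM. Its highest value anywhere was 88.8 CPM in DIO d14 replicate 2, against 10.0 and 4.01 CPM in the others of that day.

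The study compared lean with obese mice, and d7 was the only one of the 4 shared days on which edgeR called members. Mmp9 and Mmp12 were lower in DIO than in lean calli, and Timp1 was higher in every DIO library but not called. On d7 2 of the 9 genes that passed the filter on low counts were called, beside 2.32% of the 15753 genes tested. The libraries of the diets did not overlap for 6 of the 10 genes on d7, beside 22.4% of the 14807 genes with a mean of at least 1 CPM. These were Mmp2, Mmp9, Mmp11, Mmp12, Mmp16 and Timp1. On d3 the diets did not overlap for 2 genes (background 21.1%), on d5 for 3 (24%) and on d10 for 1 (14.2%).

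The Mmp9 levels of d7 given above ran from 1514 to 1604 CPM in lean and from 550.2 to 797 CPM in DIO libraries. The log2 difference, DIO against lean, was -1.27 ± 0.21 (n = 3 and 3, adjusted p = 0.0197), with all 3 DIO libraries below all 3 lean ones. It was not called without lean d7 replicate 1 (0.0743), lean d7 replicate 2 (0.114) or DIO d7 replicate 1 (0.0684), with differences between -1.26 and -1.20 in those fits. Mmp12 measured 12.4, 19.1 and 18.8 CPM in lean and 4.15, 1.91 and 1.75 CPM in DIO mice. The difference was -2.66 ± 0.37 (adjusted p = 0.0144), and it was lost without lean d7 replicate 2 (0.0584). With all 30 libraries in 1 fit the adjusted p of Mmp12 was 0.0899 and that of Mmp9 0.00976.

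Timp1 measured 492, 316 and 304 CPM in lean and 969, 1169 and 522 CPM in DIO mice on d7. The difference of 1.27 ± 0.31 did not reach the threshold (adjusted p = 0.0731), while DESeq2 called it (0.000769). Mmp3 measured 5.74, 2.8 and 2.12 CPM in lean and 16.3, 13.8 and 3.9 CPM in DIO mice (1.68 ± 0.53, 0.145), with an overlap between the diets. DIO d7 replicate 3 was the lowest DIO library for both genes, and without it both were called, Timp1 at 0.0234 and Mmp3 at 0.0281. Mmp13 differed by -0.39 ± 0.37 (0.663) and Mmp14 by -0.17 ± 0.19 (0.706), so no difference of these abundant members was detectable. Mmp10 did not pass the filter on d3, d5 or d7.

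Before d7 no member was called. On d3 edgeR called 0 of 9 members and 0% of all genes, with 2 members at an unadjusted p under 0.05, and DESeq2 called 1, Mmp3 (adjusted p = 0.0232). Mmp9 was at 406 to 686 CPM in lean and 174 to 372 CPM in DIO mice on d3, without overlap (-0.85 ± 0.30, 0.241 by edgeR). The 11 neutrophil markers summed to between 12410 and 27130 CPM in lean and between 2519 and 4101 CPM in DIO mice on that day. By edgeR 0 of the 11 were called, with 11 at an unadjusted p under 0.05. The difference was not particular to neutrophil markers (median -2.39). All 6 erythroid (-2.28) and all 4 tested B cell markers (-2.26) were lower in DIO mice too. Each of these had an unadjusted p under 0.05 by edgeR, with 0 called. The part of these cell types in the Mmp9 values was not tested. On d5 edgeR called 0 of 9 members and 1.08% of all genes, with 3 members at an unadjusted p under 0.05, and DESeq2 called 2, Mmp12 (0.0134) and Timp1 (0.00419). Mmp12 was at 1.43, 2.09 and 1.69 CPM in DIO against 6.35, 32.6 and 4.31 CPM in lean mice (-3.05 ± 0.76, 0.099). Timp1 was at 805, 503 and 834 CPM in DIO against 232, 300 and 492 CPM in lean mice (1.07 ± 0.30, 0.124). Without lean d5 replicate 3 edgeR called both on d5, at 0.0247 for Mmp12 and 0.0236 for Timp1. The directions of d7 for these 2 genes were thus present on d5, where the libraries did not overlap either. On d5 all 9 macrophage markers had a lower DIO level, with sums of 1915 to 2629 CPM in lean and 1393 to 1716 CPM in DIO mice. By edgeR 0 of these 9 were called on d5, with 6 at an unadjusted p under 0.05. The 12 chondrocyte markers had a higher DIO level and the 11 neutrophil, 6 erythroid and 5 B cell markers a lower one. In each list 0 were called, with 6, 9, 6 and 4 at an unadjusted p under 0.05. The part of these cell types in the d5 values was not tested.

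On d10 no member differed beyond the threshold. Neither edgeR nor DESeq2 called any of the 10 members, edgeR called 0% of all genes, and 0 members had an unadjusted p under 0.05. Mmp9 differed by -0.05 ± 0.21 and Mmp13 by -0.04 ± 0.24 on the log2 scale. Timp1 differed by -0.88 ± 0.45 (adjusted p = 0.686), with 1576, 456 and 553 CPM in lean and 355, 469 and 567 CPM in DIO mice. Its lean mean on d10 turned on replicate 1, the library with the high chondrocyte markers, and the other lean libraries lay within the range of the DIO ones. The 1 member without overlap was Mmp14, with 1046 to 1314 CPM in lean and 893 to 939 CPM in DIO mice (-0.31 ± 0.19, 0.707). The chondrocyte sums were 15060 to 79070 CPM in lean and 4677 to 9507 CPM in DIO mice, without overlap. All 12 markers were lower in DIO mice (median -2.67), with 0 called by edgeR and 11 at an unadjusted p under 0.05. All 9 skeletal muscle and all 4 tested adipocyte markers were higher, with 0 called. The part of these cell types in the d10 values was not tested.

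**Figure D3:**
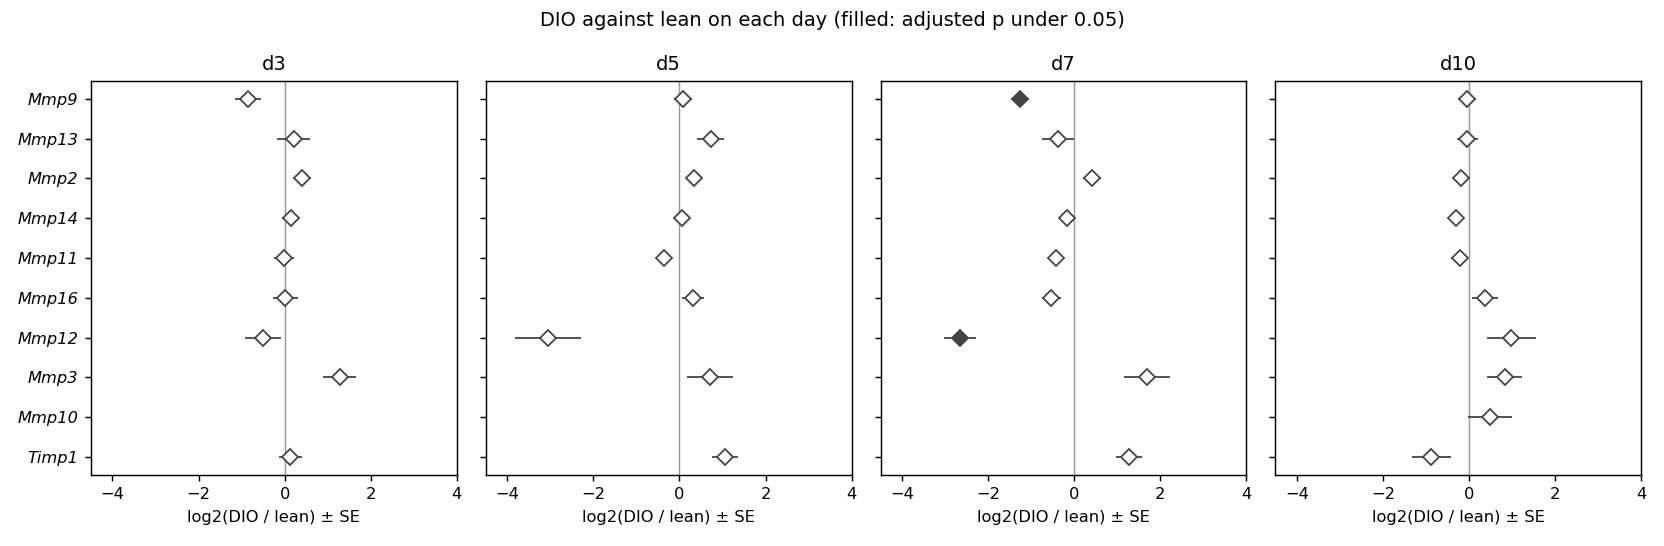
Log2 difference of DIO against lean mice ± SE for each gene on d3, d5, d7 and d10, with filled symbols where the adjusted p was under 0.05. Only Mmp9 (-1.27) and Mmp12 (-2.66) on d7 are filled, and the Mmp9 point is at -0.05 on d10; Mmp10 has no point before d10 because it did not pass the filter.

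Over the 24 libraries of d3 to d10 the diet difference changed with time. Any change over the 4 days was called for 1 of the 10 genes, Mmp12 (adjusted p = 0.0445), beside 1.65% of the 17057 genes tested. For Mmp9 the value was 0.0764. Between d7 and d10 the change of the diet difference was called for 3 genes, beside 5.07% of all genes. The DIO level relative to lean went up by 1.22 ± 0.34 for Mmp9 (0.0442) and by 3.64 ± 0.90 for Mmp12 (0.024) on the log2 scale, and it went down by 2.15 for Timp1 (SE 0.58, 0.0363). On d10 the DIO and lean means were 3989 ± 382 and 4174 ± 208 CPM for Mmp9 (SD, n = 3 each), 9.11 ± 5.83 and 4.66 ± 2.39 CPM for Mmp12, and 464 ± 106 and 862 ± 621 CPM for Timp1.

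These tests of change were fragile, for the members and for all genes. Without 1 library, 0 to 602 genes were called for any change, beside 282 in the main fit. Between d7 and d10 the range was 257 to 1660 genes, beside 865. The Mmp12 call over all 4 days was lost in 19 of the 24 fits that left out 1 library, with adjusted p-values up to 0.136, and kept only without a library of lean d5, lean d10 replicate 2 or DIO d3 replicate 3. With all 30 libraries in 1 fit it was lost too (0.143), as were those of Mmp9 (0.0581) and Mmp12 (0.0805) between d7 and d10. Between d7 and d10 the call of Mmp9 was kept only without lean d10 replicate 3 or DIO d7 replicate 3, and was lost in the other 10 fits (up to 0.107). The call of Mmp12 was lost without lean d7 replicate 2 (0.0609), lean d10 replicate 1 (0.0813), DIO d7 replicate 2 (0.0657) or DIO d10 replicate 1 (0.0821). The call of Timp1 was lost in 7 of 12 fits, and without lean d10 replicate 1 its change was -1.37 (0.169). The losing libraries for Timp1 were lean d7 replicates 2 (0.099) and 3 (0.0752), lean d10 replicate 1, all of DIO d7 but replicate 3 (0.0642 and 0.0959), and DIO d10 replicates 1 (0.1) and 2 (0.0666).

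Averaged over d3 to d10, 3 of the 10 genes were called, beside 2.46% of all genes. Mmp9 (-0.52 ± 0.12, adjusted p = 0.0319) and Mmp12 (-1.30 ± 0.32, 0.0364) were lower in DIO mice, and Mmp3 (1.13 ± 0.28, 0.0377) was higher. Mmp3 had a higher DIO than lean mean on each of the 4 days, and on d3 its DIO libraries (10.8, 7.38 and 20.2 CPM) did not overlap with the lean ones (6.05, 3.66 and 6.2 CPM). Of the 24 fits without 1 library, 10 lost Mmp9, 12 lost Mmp12 and 13 lost Mmp3, with adjusted p-values up to 0.0708, 0.0792 and 0.0854. All 3 calls were lost without replicate 2 of any lean day, without DIO replicate 2 of d5, d7 or d10, and without DIO replicate 3 of d3, d5 or d10. That of Mmp12 was also lost without lean d10 replicate 3 or DIO d3 replicate 2, and that of Mmp3 without lean d7 replicate 3, lean d10 replicate 3 or DIO d7 replicate 1. With all 30 libraries in 1 fit Mmp12 (0.0799) and Mmp3 (0.115) were not called. Mmp3 shares a stretch of 284 bases at 95.4% identity with the gene model Gm15242, so reads of either could have been lost or counted for the other.

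Cell type markers moved with the d7 difference. The summed level of 10 osteoclast markers, such as Acp5, Ctsk and Calcr, was 4253, 4390 and 3352 CPM in lean and 1407, 2185 and 1808 CPM in DIO mice on d7. Of the 9 that were tested 6 were called lower in DIO mice, with a median difference of -1.17, against -0.00126 for all genes. On d10 the sums were 9779 to 13250 CPM in lean and 11120 to 14510 CPM in DIO mice, and edgeR called 0 of the 10, with 0 at an unadjusted p under 0.05. Between d7 and d10 a rise of the diet difference was called for 6 of the 10, as it was for Mmp9, beside 5.07% of all genes called. Over the same step a fall of the diet difference, the direction of Timp1, was called for 9 of 12 chondrocyte markers (median of the list -4.87). It was also called for 3 of 4 hypertrophic chondrocyte markers (-2.83). The part of osteoclast RNA in the Mmp9 result and of chondrocyte RNA in the Timp1 result was not tested.

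The 9 macrophage markers summed to 1859, 2033 and 1281 CPM in lean and 1008, 1009 and 1023 CPM in DIO mice on d7, and 3 of 9 were called lower in DIO mice. The lean mean of Mmp12 on d7 was 6.43 times its DIO mean, and the part of macrophage RNA in the Mmp12 result was not tested. Chondrocyte markers moved the other way, from 6503 to 18790 CPM in lean and from 20190 to 46580 CPM in DIO mice, with 3 of 12 called higher in DIO mice. By edgeR 0 of 11 neutrophil markers were called on d7, with 0 at an unadjusted p under 0.05, and their sums ran from 8282 to 12540 CPM in lean and from 2405 to 12000 CPM in DIO mice. Of 8 osteoblast markers 2 and of 3 adipocyte markers tested 1 were called lower in DIO mice, and 1 of 4 hypertrophic chondrocyte markers was called higher. By edgeR 0 of 7 fibroblast and 0 of 5 endothelial markers were called, with 2 of each at an unadjusted p under 0.05. The 9 skeletal muscle and 6 erythroid markers had 0 called and 0 at an unadjusted p under 0.05. The sums of the B cell list ran from 46.2 to 50.5 CPM in lean and from 7.28 to 31.3 CPM in DIO mice, with 0 of 5 called by edgeR and 4 at an unadjusted p under 0.05.

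**Figure D4:**
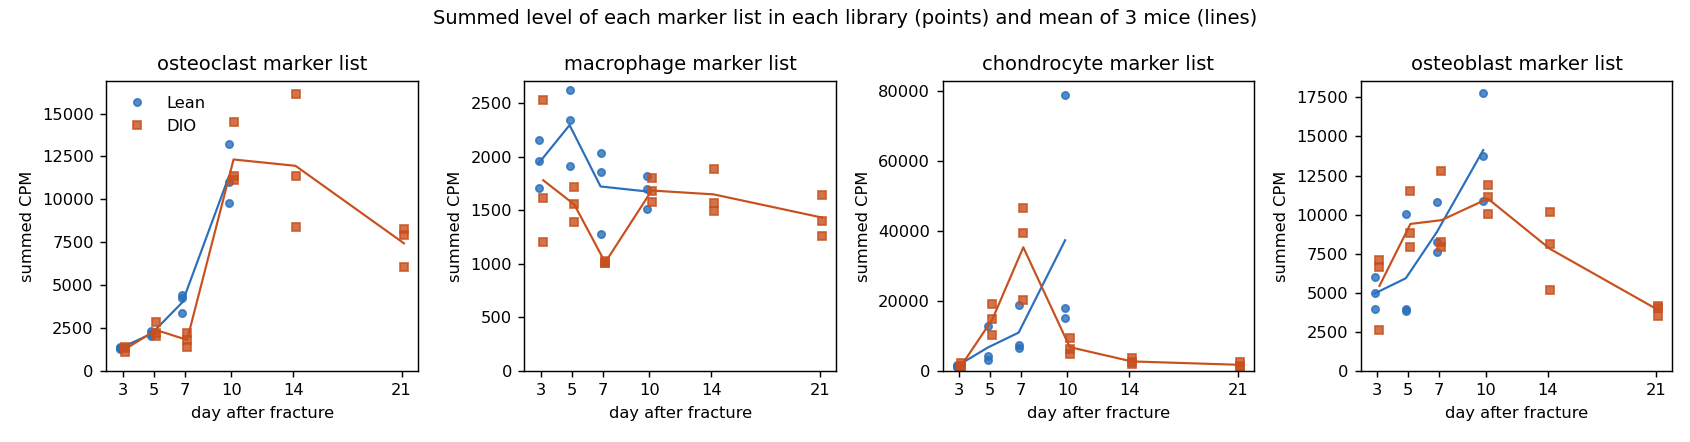
Summed CPM of 4 marker lists (vertical axes, each from 0) against day after fracture, for lean (circles) and DIO mice (squares), with 1 point per library and a line through the means. The osteoclast and macrophage sums lie lower in DIO mice on d7, the chondrocyte sum lies higher there, and the single high chondrocyte value on d10 is lean replicate 1 (79070 CPM). The other lean chondrocyte values of d10 also lie above the DIO ones.

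Markers of several cell types moved with Mmp9 and Mmp13 over time. In lean mice all 12 chondrocyte (median 6.30 on the log2 scale), all 4 hypertrophic chondrocyte (4.84) and all 10 osteoclast markers (3.55) rose from d3 to d10, as did Mmp9 and Mmp13. In DIO mice 9 of 10 osteoclast markers were called higher from d7 to d10, with a median of 2.64 for the list. So were 5 of 5 B cell markers (2.37) and 3 of 5 adipocyte markers (2.15). By direction alone, all 10 osteoclast and all 5 adipocyte markers went up. Osteoblast markers were called higher too, 7 of 8 in lean mice from d3 to d10 and 5 of 8 in DIO mice from d7 to d10. By direction alone, 8 and 6 of them went up. Over these steps 29.3% and 13% of all genes were called. Chondrocyte markers parted from the members in DIO mice, where 10 of 12 were called lower from d7 to d10 while Mmp9, Mmp13 and Mmp16 rose. By direction alone, 11 of these 12 went down. The part of any of these cell types in the rise was not tested.

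The genes whose log2 CPM followed each member most closely over the 30 libraries were ranked by Pearson correlation among 14807 genes. All points share their libraries and their days, so the values are descriptions. For Mmp9 they were Rufy4 (r = 0.978), Acp5 (0.968), the tartrate-resistant acid phosphatase of osteoclasts, and Atp6v0d2 (0.962), a subunit of their proton pump. For Mmp13 they were Serpine2 (0.958), an inhibitor of serine proteases, Cd109 (0.953) and Crnde (0.931). For Mmp12 they were Itgax (0.814), the integrin CD11c of dendritic cells and some macrophages, Klrd1 (0.77) and Fam124a (0.759). Mmp2 was followed by Pdgfrl (0.959), Fkbp9 (0.928) and Emp2 (0.927), and Mmp14 by Gpc1 (0.952), Mxra8 (0.946) and C1qtnf6 (0.944). Timp1 was followed by Ppa1 (0.948), S100a10 (0.937) and Ssr2 (0.928).

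The remaining members had looser partners. Mmp11 was followed by Gatd1 (0.905), Mfap2 (0.884) and Ecm2 (0.882), and Mmp16 by Lifr (0.891), Gja1 (0.887) and Pard6g (0.885). Mmp3 was followed by Hspb8 (0.9), Neurl1a (0.899) and Gm26722 (0.899), and Mmp10 by Gm2830 (0.837), 1700021F05Rik (0.774) and Mrps25 (0.771). Among the members themselves the closest pair was Mmp9 with Mmp13 (0.899), then Mmp2 with Mmp14 (0.859) and Mmp2 with Mmp11 (0.79).

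In the summed MMP level, in CPM per kb, the shares of Mmp9 and Mmp13 were larger on d10 than on d3, and those of Mmp2 and Mmp14 smaller. A share can fall while the level rises, as that of Mmp2 did in lean mice. In lean mice Mmp2 made up 32.5% ± 5.0 (SD, n = 3) of the sum on d3 and 16.2% ± 0.58 on d10. Mmp9 went from 23.7% ± 8.2 to 39.8% ± 2.1, Mmp13 from 24.4% ± 0.81 to 36.8% ± 2.0, and Mmp14 from 17.4% ± 2.3 to 6.47% ± 0.49. In DIO mice Mmp2 held 41.9% ± 7.3 on d3. On d7 Mmp9 held 32.2% ± 3.7 in lean and 16.5% ± 4.8 in DIO mice, without overlap, and Mmp2 held 26.2% ± 3.7 and 42.4% ± 8.6, also without overlap. The sum itself was 1384 ± 118 CPM per kb in lean and 1122 ± 88.1 in DIO mice on that day. By d10 Mmp9 held 40.7% ± 1.3 in DIO mice, and its share was 42.1% ± 2.1 on d14 and 41.5% ± 0.56 on d21.

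The summed MMP level was set against Timp1 as a log2 ratio, both per kb, without the 4 other inhibitor genes. This ratio of mRNA levels is no measure of the balance of active protease and inhibitor. It rose in lean mice from -0.73, 0.17 and -0.24 on d3 to 1.34, 1.82 and 2.13 on d7. In DIO mice it was -0.50, -0.07 and -0.46 on d3, and still 0.11, -0.17 and 0.80 on d7. On d10 it was 0.88, 2.38 and 2.25 in lean and 2.72, 2.26 and 2.31 in DIO mice, and in DIO mice it went on to 3.10 ± 0.16 (SD, n = 3) on d21. On d7 all DIO libraries lay below all lean ones, a difference of -1.52. The exact two-sided permutation test gave p = 0.1, the smallest that 3 against 3 allows, and 0.167 after adjustment over 5 tests.

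The same test gave a difference of -0.78 on d5 (p = 0.1, the smallest possible) and of 0.59 on d10 (exact p = 0.4). On d3 the difference was -0.07 (exact p = 0.9). Over d3 to d10, with diets exchanged within days in 160000 assignments, the mean difference was -0.44 (exact permutation p = 0.0881, adjusted 0.167). None of the 5 ratio tests passed the threshold. The tests of single days could not pass it, since the smallest p they allow is 0.1. The d10 value again turned on lean replicate 1, whose ratio of 0.88 was the lowest of that day. Without it the d10 difference was 0.11 (exact p = 0.8) and the mean over d3 to d10 was -0.56 (exact permutation p = 0.0101, adjusted 0.0507).

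**Figure D5:**
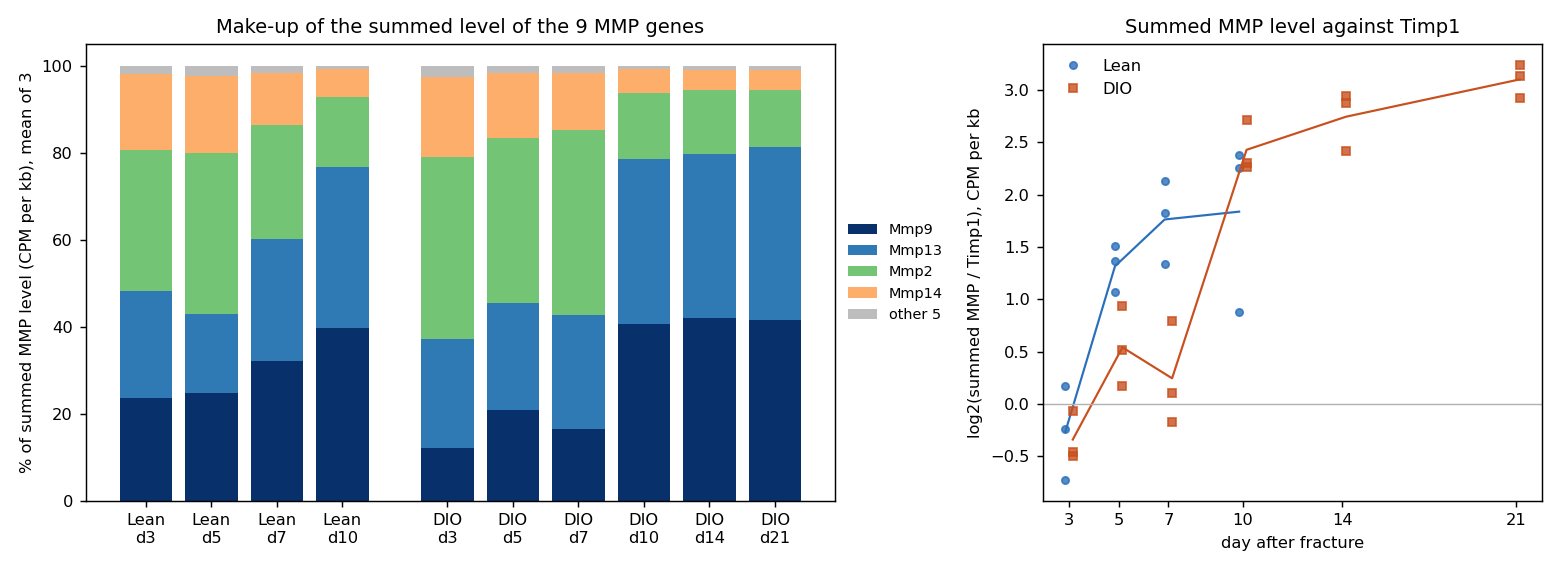
Left, the mean percentage (3 mice per bar) that each MMP gene made up of the summed level of the 9 MMP genes in CPM per kb, by diet and day. Right, the log2 ratio of that sum to Timp1 per kb in each library (points) with lines through the means; the Mmp9 share is 32.2% in lean and 16.5% in DIO mice on d7, and the ratio lies lower in DIO mice on that day.

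Of the 14 other MMP genes 7 or 8 passed the filter in each fit, and few of them moved with the members. In lean mice Mmp25 (-3.15 ± 0.65, adjusted p = 0.00464) and Mmp8 (-2.20 ± 0.75, 0.046), the collagenase of neutrophils and a gene of the chromosome 9 cluster, fell from d3 to d10. Over the same days 6 of 11 neutrophil markers were called lower, beside 29.3% of all genes called, and all 11 went down. The part of neutrophil RNA in this was not tested. In DIO mice Mmp19 fell from d7 to d10 (-1.12 ± 0.21, 0.00168). Mmp23 fell from d14 to d21 (-0.94 ± 0.24, 0.0124). By edgeR 0 of them were called between diets on any day, and the counts at an unadjusted p under 0.05 were 3 on d3, 3 on d5, 1 on d7, and 0 once d10 was reached.

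Of the other inhibitors, Timp2 rose in lean mice from d3 to d10 (0.93 ± 0.16, adjusted p = 0.00181) and Timp4 in DIO mice from d7 to d10 (2.94 ± 0.79, 0.0185). Timp3 and Reck were not called in these steps, and 0 of the 4 were called between diets by edgeR on any day, with 0 at an unadjusted p under 0.05. Genes that govern MMP activation also changed. Plau, the urokinase that makes plasmin, fell from d3 to d10 in lean (-1.80 ± 0.19, 0.000131) and in DIO mice (-1.75 ± 0.23, 7.68e-05). Its inhibitor Serpine2 rose by 2.11 ± 0.23 (0.000176) and 2.66 ± 0.25 (2.36e-06). In all, 3 of 7 activation genes tested were called in lean and 5 of 7 in DIO mice from d3 to d10, beside 29.3% and 21.8% of all genes.

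Of the factors whose motifs stand in the printed promoters, only 8 genes for AP-1 subunits and RUNX2 were examined. None of them was called higher on d10 than on d3 in either diet. By direction alone, 4 went up and 4 down in lean mice, and 1 went up and 7 down in DIO mice. Of these 8 genes, 2 were called in lean mice from d3 to d10, beside 29.3% of all genes. They were Jun (-0.97 ± 0.19, adjusted p = 0.00341) and Fos (-0.88 ± 0.22, 0.0119), both lower on d10. In DIO mice 4 were called over these days, beside 21.8% of all genes. All 4 were lower, among them Junb (-1.52 ± 0.18, 2.77e-05) and Fosl1 (-3.32 ± 0.50, 0.000229). Between diets the only call on a single day was Fosb, lower in DIO mice on d5 (-2.60 ± 0.31, 0.0296). The diet difference of Fosl1 went down between d7 and d10 (-3.39 ± 0.97, 0.0463). Runx2 was not called in any of these comparisons. Messenger RNA of a factor is no measure of its activity, and the part of these factors in the MMP levels was not tested.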

How the data were processed

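RNA-seq of 30 callus libraries was analysed. The authors demultiplexed reads with bcl2fastq, trimmed them with BBDuk, aligned them to GRCm38 with HISAT2 2.1.0 and deposited raw counts per gene from HTSeq. The HTSeq version, strand option and annotation are not given in the sources used here, so the overlaps of Mmp11 with Chchd10 and of Mmp12 with Mmp1b stay unresolved. Exon lengths and positions came from GENCODE M21.

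Counts were tested with edgeR 4.0.16 (R 4.3.3; TMM, filterByExpr, quasi-likelihood F-test, two-sided, adjusted p under 0.05) in fits of the 12 lean libraries, the 18 DIO libraries, the 6 of each day, and the 24 of d3 to d10. DESeq2 1.42.0 was 1 alternative. Library totals limit the precision of Mmp10. The smallest chi-square per degree of freedom between 2 replicates was 13.6, so no library was counted as a duplicate. In simulated counts for the d7 comparison (15753 genes) the test recovered 34 of 100 genes changed 1 log2 unit and 86 of 100 changed 2. It also called 17 unchanged genes. For the change of the diet difference from d7 to d10 it recovered 19 and 68 of 100, and called 5 unchanged genes.

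The 10 members and the related and marker lists were chosen with earlier results of these data known. Named genes were the members, the 3 most similar genes of each, and up to 4 called genes per related list and comparison. A gene of the activation list is included in the counts but not reported here by name.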

Additional observations from a re-analysis of the deposited data

Results flagged for a closer look

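Between d7 and d10 the difference between diets changed for 3 genes by a test of the change itself. The DIO level relative to lean went up by 1.22 on the log2 scale for Mmp9 and by 3.64 for Mmp12, and the change for Timp1 was -2.15. For Mmp12 any change over d3 to d10 was called as well (adjusted p = 0.0445). These values are described in the results above, with the libraries whose removal ends each call.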

How the results depend on the processing

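Of 80 comparisons of a single gene with an unadjusted p under 0.05, recomputed under the alternatives, 1369 values were obtained. Of these, 1179 kept their side of the threshold and their direction, 129 lost a call, 60 gained one and 1 changed sign. That was Mmp12 from d10 to d14 in DIO mice, at -0.40 without DIO d14 replicate 2 (range -0.40 to 2.46 without 1 library). The numbers of members called changed most with DESeq2, which called 8 over all lean days, 4 from d3 to d7 and 4 from d7 to d10 in lean mice, 1 between diets on d3, 2 on d5, 4 on d7 and 3 for any change of the diet difference. With no filter but 1 count, 1 was called on d5, 4 on d7 and 3 for any change. With all 30 libraries in 1 fit, 1 was called on d7, 1 in the mean of d3 to d10, 0 for any change (3 at an unadjusted p under 0.05 in the fit of the 24 libraries) and 1 for the change from d7 to d10. Upper-quartile factors gave 6 from d14 to d21. The cause of these shifts was not tested. RLE factors and a filter of 0.5 CPM in 3 libraries moved no number of members called by over 1.5 times.

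Without 1 library the members called ranged from 3 to 6 over all lean days, 1 to 3 from d3 to d7, 0 to 2 from d7 to d10 and 5 to 6 from d3 to d10. In DIO mice they ranged from 9 to 10 over all days, 0 to 2 from d3 to d7, 3 to 4 from d7 to d10, 2 to 5 from d3 to d10 and 0 to 6 from d14 to d21, with 0 in each fit from d10 to d14. Between diets they ranged from 0 to 3 on d5, 0 to 4 on d7 and 0 to 4 in the mean, with 0 in each fit of d3 and of d10, and from 0 to 2 for any change and 0 to 3 for the change from d7 to d10. Such fits also have less power for every gene. Over all genes 29 to 936 were called between diets on d7, beside 366 in the main fit. The MMP to Timp1 ratio passed the threshold after adjustment under no alternative. Its single-day tests could not pass, since their smallest possible p is 0.1. The d3 difference of the ratio ranged from -0.30 to 0.14. Leaving out Mmp13, dropping the division by length, or summing all MMP genes turned no ratio. Of the 30 most similar genes, 14 were also among the highest 3 by Spearman correlation.

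The sample labels hold no replicate numbers, and those used here follow the order of the samples within each group. They name different mice and were not taken to pair the samples. Of the pairs of groups checked, only lean d5 with lean d7 had every correlation of same-numbered samples over 0.1 (0.204 to 0.277). Since the numbers are arbitrary, calls that a block on them added or lost support no result. A fit with the replicate number as a block called 1 member from d3 to d7 in DIO mice, 1 between diets on d3 and 0 for any change of the diet difference, and moved no other number of members called by over 1.5 times. It added Mmp12 (adjusted p = 0.0438) and Mmp14 (0.0428) over all lean days, Mmp13 from d3 to d7 (0.0193) and Mmp12 from d7 to d10 (0.0422) in lean mice, and Mmp9 on d3 (0.0412) and Timp1 on d7 (0.0423) between diets. It lost Mmp2 from d3 to d7 (0.0542) and Mmp14 from d14 to d21 (0.0549) in DIO mice and Mmp12 for any change (0.0606). Depth limits Mmp10 most, and with 3 mice per group a member could differ by 1 log2 unit without being called.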
